A study of Mus musculus with 21 samples.

Results

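The Gm10800 family is a set of 10 mouse genes whose sequences resemble each other and whose level in RNA libraries of ovarian cells ranged from close to 0 to almost the whole library. The members are Gm10800, Gm10801, Gm10717, Gm10718, Gm10719, Gm10721, Gm10722, Gm11168, Gm17535 and Gm21738, 10 of 55335 gene identifiers measured. They were chosen as the genes that share at least 10% of their 20-base words with Gm10800 and reach a TPM of at least 1000 in a library. TPM, the transcript level, scales the reads of a gene by its length and by the library's sum, so the values of 1 library add up to the same sum as those of any other. The members were thus chosen by their highest TPM and by sequence, and because the level was used, their levels and their differences between groups are given as a description. Where a fit over all genes called members, their count is printed beside that of all genes and supports nothing. Just inside the limit was Gm17535, with a highest TPM of 1471, and just outside were Gm10720 and Gm10715, with highest TPM of 692 and 584.

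Names that start with Gm are given to predicted mouse genes with no assigned function. The mouse genome holds long arrays of a short, A+T-rich sequence, the major (gamma) satellite, repeated head to tail beside the centromeres. These arrays are packed into pericentromeric heterochromatin, a dense form of chromatin that carries methylated DNA and methylated histones and is kept mostly silent. Satellite transcripts are known from early embryos, from stressed cells and from cells that lose this packing.

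RNA was measured in 12 oocyte and 9 granulosa cell libraries from the ovaries of ICR mice. The oocyte groups were Young (6 to 8 weeks old, n = 3), Aged (18 months old, n = 2), and aged mice that had received human umbilical cord mesenchymal stem cells under the ovarian capsule, either unsorted (Aged + Unsorted, n = 2) or sorted for high (Aged + LRP1high, n = 3) or low (Aged + LRP1low, n = 2) surface LRP1, a receptor of lipoproteins and other ligands, with tissue taken 3 weeks later. The granulosa cell groups, the somatic cells around the oocyte, were Young (n = 1), Aged (n = 2), Aged + Unsorted (n = 1), Aged + LRP1high (n = 3) and Aged + LRP1low (n = 2). The labels name no engineered allele, and they do not say how many mice or cells went into a library, so the spread between libraries may be technical in part.

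The 10 genes lie at 3 loci of the GRCm38 assembly. On chromosome 2, Gm10801 on the plus strand and Gm10800 on the minus strand lie between 98662237 and 98667301. On chromosome 9, 7 members lie on the plus strand between 3000922 and 3035805, beside the centromeric end of the assembled chromosome, in the order Gm10722, Gm11168, Gm10721, Gm10719, Gm10718, Gm10717 and Gm17535. On chromosome 14, Gm21738 lies on the minus strand between 19415857 and 19418930. GENCODE annotates all 10 as protein coding, with 23 transcripts of 504 to 684 bases of coding length and no untranslated region. Of the 81 introns in these models, 30 are 10 bases or shorter.

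Over part of their length the sequences are so alike that reads of 1 member can be hard to tell from those of another. The lines give, for 6 members, the 117 bases that best match the first 117 bases of the longest exon of Gm10800, 5′ to 3′ on the strand of the gene, with the bases that differ from Gm10800 in capitals. They were chosen to show the member with the highest level, its neighbour on chromosome 2, 2 chromosome 9 members that are identical over the window, the member closest to Gm10800 and the member farthest from it.
Gm10800: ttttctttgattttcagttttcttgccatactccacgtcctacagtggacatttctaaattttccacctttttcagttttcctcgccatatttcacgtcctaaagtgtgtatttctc
Gm10801: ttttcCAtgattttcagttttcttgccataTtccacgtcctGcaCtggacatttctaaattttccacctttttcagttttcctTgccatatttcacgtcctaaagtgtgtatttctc
Gm10719: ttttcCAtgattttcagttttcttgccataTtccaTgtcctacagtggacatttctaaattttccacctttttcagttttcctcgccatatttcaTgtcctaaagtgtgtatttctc
Gm10722: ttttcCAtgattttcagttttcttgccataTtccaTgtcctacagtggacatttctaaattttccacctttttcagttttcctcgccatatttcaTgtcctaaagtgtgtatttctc
Gm10717: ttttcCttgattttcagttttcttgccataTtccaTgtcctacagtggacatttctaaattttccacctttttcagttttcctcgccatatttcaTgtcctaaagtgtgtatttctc
Gm21738: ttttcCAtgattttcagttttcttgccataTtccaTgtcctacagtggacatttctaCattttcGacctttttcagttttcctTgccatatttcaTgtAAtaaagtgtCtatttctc

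The Gm10800 window is at chr2:98666924-98667040, that of Gm10801 at chr2:98662315-98662431, that of Gm10719 at chr9:3020866-3020982, that of Gm10722 at chr9:3001136-3001252, that of Gm10717 at chr9:3025660-3025776 and that of Gm21738 at chr14:19417170-19417286. Over this window the other 9 members were 90.6% to 96.6% identical to Gm10800, and 99 of the 117 positions held the same base in all 10. Pairs on chromosome 9 were 94.9% to 100% identical (21 pairs), and pairs on different chromosomes 90.6% to 96.6% (23 pairs). A word of 42 bases is the longest that all 10 share, and 2 words have that length, of which 1 is shown:
shared word: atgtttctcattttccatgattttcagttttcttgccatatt

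The transcripts also resemble themselves. Laid over itself, each of the 23 matched best at a distance of 225 to 237 bases, of 234 bases in 16 of them, where 52.7% to 69.7% of its positions held the same base. A shorter distance of 58 bases was the best between 50 and 70 bases in all 23. Among 19216 annotated transcripts of 504 to 684 bases, 28 (0.146%) matched themselves as well between 220 and 240 bases, and 23 of the 28 were those of the family. The cut-off was the lowest self-match of these 23, and the range encloses their own best distances, so all 23 passed by construction. The others belong to Gm10715 and Gm10720, the relatives just outside the level limit, and to Gm29735 and Gm45618. The family transcripts held 34.2% to 36.0% G and C, against a median of 50.1% in transcripts of that length. These are properties of the annotation, and sequence likeness was part of the choice of the members.

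Depth was estimated at 0.278 to 3.40 gigabases of aligned sequence in the oocyte and 0.335 to 1.49 in the granulosa cell libraries and the tables gave no number of reads. Several libraries went against their labels. The granulosa cell library labelled Aged + Unsorted had a median FPKM (fragments scaled by gene length and by all fragments of the library) of 800 over 10 oocyte markers and of 0.601 over 10 granulosa cell markers. In 6 other granulosa cell libraries the median of the granulosa cell markers was between 0.0482 and 0.424, and it was 13.6 in Aged + LRP1high replicate 3 and 47.8 in the Young library. Among the oocyte libraries, the median of the oocyte markers was 0.892 in Young replicate 1, 11.6 in Aged replicate 1, and 5.02 and 7.77 in the Aged + LRP1low libraries, against 84.9 to 1001 in the other 8. In bulk RNA, fewer cells of a type and less RNA per cell cannot be told apart.

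The family took from almost none to nearly the whole of a library. In Young oocytes the 10 genes held 88.3% of the TPM in replicate 1, 1.13% in replicate 2 and 0.000941% in replicate 3. In Aged oocytes they held 48.6% and 19.6%. In Aged + Unsorted oocytes the share was 3.17% and 0.0111%. The Young group thus held both the highest and the lowest of the 12 oocyte libraries. In Aged + LRP1high oocytes the share was 0.04997%, 1.73% and 1.11%, and in Aged + LRP1low oocytes it was 42.4% and 63.6%. All 3 Aged + LRP1high libraries lay below both Aged and both Aged + LRP1low libraries.

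In granulosa cells the share was higher in most libraries. It was 7.84% in the Young library and 25.9% in the library labelled Aged + Unsorted. In Aged granulosa cells it was 93.4% and 95.4%, in Aged + LRP1high 82.5%, 96.4% and 68.5%, and in Aged + LRP1low 66.8% and 97.0%. The single Young library and the single library labelled Aged + Unsorted lay below all 7 others. In terms of reads, FPKM times coding length put the family at 3.06% to 70.6% of the fragments of granulosa cell libraries (median 48.5%), and at 0.000242% to 55.9% of those of oocyte libraries (median 0.698%).

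**Figure D1:**
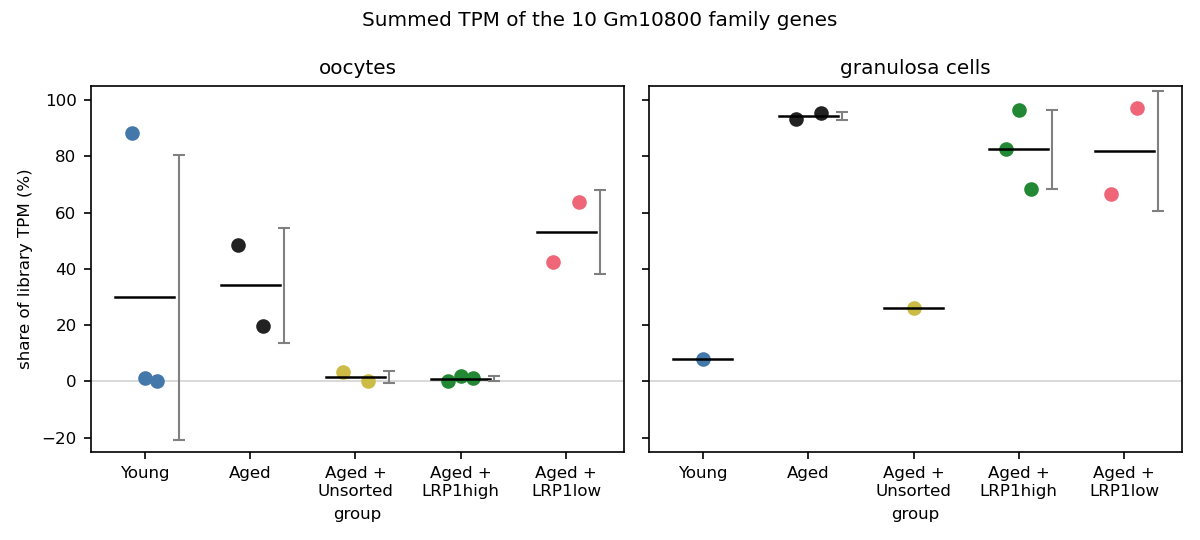
The share of the library TPM taken by the 10 family genes (percent, y axis) is plotted for each library (points) by group (x axis), in oocytes on the left and granulosa cells on the right, with the group mean as a black line and the mean ± SD as a grey bar where a group has 2 or more libraries. Young oocytes span 0.000941% to 88.3%, and 7 of 9 granulosa cell libraries are above 66%.

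Ordered by group mean, oocytes ran from Aged + LRP1high (0.965% ± 0.851, SD, n = 3) through Aged + Unsorted (1.59% ± 2.23, n = 2), Young (29.8% ± 50.7, n = 3) and Aged (34.1% ± 20.5, n = 2) to Aged + LRP1low (53.0% ± 14.98, n = 2). The ranges of each pair of neighbours in this order overlapped. Granulosa cells ran from Young (7.84%, n = 1) and Aged + Unsorted (25.9%, n = 1) through Aged + LRP1low (81.9% ± 21.4, n = 2) and Aged + LRP1high (82.5% ± 13.96, n = 3) to Aged (94.4% ± 1.35, n = 2). Among the last 3 groups, neighbours in this order overlapped. Aged + LRP1low did not overlap with Aged + Unsorted below it. The Young oocyte mean rests on 1 library, and without replicate 1 it was 0.565%.

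Gm10800 carried most of this signal. Its TPM in Young oocytes was 781396, 9983 and 6.89. In Aged oocytes it was 425938 and 173573. Gm10800 was the gene with the highest TPM in 14 of the 21 libraries, 5 of 12 oocyte and 9 of 9 granulosa cell libraries. In Aged + Unsorted oocytes it was 27015 and 94.4, in Aged + LRP1high oocytes 389.9, 15151 and 9739, and in Aged + LRP1low oocytes 374569.8 and 555442. Granulosa cells had a Gm10800 TPM of 69194 in Young, 818694 and 832935 in Aged, 229819.7 in the library labelled Aged + Unsorted, 733641, 865584 and 610273 in Aged + LRP1high, and 590476 and 865815 in Aged + LRP1low. The mean number of reads over each of its bases was 9.20 in the lowest library, Young oocytes replicate 3, and 1210437 in the highest, Aged + LRP1high granulosa cells replicate 2.

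Gm21738 on chromosome 14 was the second of the 10 members in all 21 libraries. In Young oocytes its TPM was 57503, 814 and 1.51, in Aged 35537 and 12827, and in Aged + Unsorted 2841 and 9.39. It was 68.5, 1310 and 792 in Aged + LRP1high and 26369.9 and 44859 in Aged + LRP1low oocytes. These libraries rank in the same order for Gm21738 as for Gm10800. In granulosa cells its TPM was 5186 in Young, 59059 and 59140.1 in Aged, 16399.5 in the library labelled Aged + Unsorted, 55067, 54631 and 41962 in Aged + LRP1high, and 43400.1 and 60397 in Aged + LRP1low. Gm10800 was 4.57 to 15.8 times as high as Gm21738 over the 21 libraries (median 13.3).

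The remaining members were lower. Gm10722, the first gene of the chromosome 9 cluster, reached a TPM of 0.460 to 19131 in oocytes (median 308) and 1110.1 to 20614 in granulosa cells (median 15104). Gm10801, which faces Gm10800 on chromosome 2, reached 0.458 to 9999 in oocytes (median 435) and 1142 to 18587 in granulosa cells (median 10477). Lying 5 kilobases or less from Gm10800, it was still lower than Gm10800 in every library. Gm11168 had a TPM of 0 to 5481 in oocytes and 338 to 5676 in granulosa cells, Gm10721 of 0 to 3121 and 161 to 3427, and Gm17535 of 0 to 1054 and 103 to 1471.

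**Figure D2:**
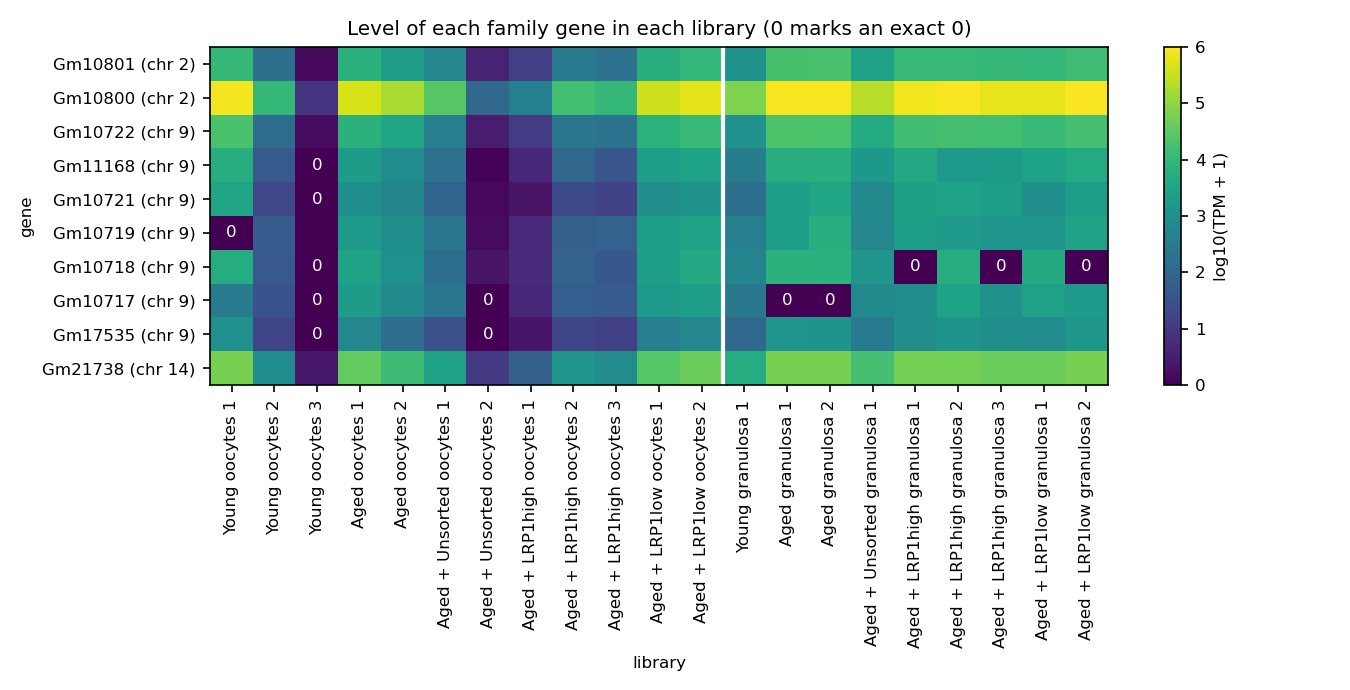
Each cell shows the level of 1 family gene (rows, ordered by locus) in 1 library (columns, oocytes left of the white line and granulosa cells right of it) as log10(TPM + 1), with 0 written where the file lists exactly 0. Gm10800 and Gm21738 are the brightest rows, whole columns brighten and darken together, and single 0s interrupt Gm10719, Gm10718 and Gm10717 in libraries where the other members are high.

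Exact 0s broke this pattern. Of the 210 values of the 10 genes, 13 were listed at 0, in 8 libraries and in 6 genes. Young oocytes replicate 3, with a family TPM of 9.41, held 5 of them. Another 6 came from libraries with a family TPM of at least 1000. In both Aged granulosa cell libraries Gm10717 was listed at 0, although its TPM was 954, 3082 and 1236 in Aged + LRP1high and 2719 and 1781 in Aged + LRP1low granulosa cells. Gm10718, its neighbour on chromosome 9, was listed at 0 in Aged + LRP1high replicates 1 and 3 and in Aged + LRP1low replicate 2 of the granulosa cells, and had a TPM of 6998 and 6724 in Aged, 5562 in Aged + LRP1high replicate 2 and 4359 in Aged + LRP1low replicate 1. Gm10719 was listed at 0 in Young oocytes replicate 1, where the family held 88.3% of the TPM. Over the 117-base window shown above the members differ at few bases. Over whole transcripts the other members share 27.7% (Gm21738) to 41.9% (Gm10801) of their 20-base words with Gm10800. How reads that match several copies were shared out is not given in the sources used here, and the alignment of reads was not examined. The value of a single member is therefore less certain than the family total.

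Within the family the shares of the highest members moved little beside the total in libraries where the family was high. In the 18 libraries with a family TPM of at least 1000, Gm10800 held 85.2% to 89.8% of the family TPM (mean 88.1% ± 1.00, SD), Gm21738 5.67% to 8.96%, Gm10722 1.16% to 2.21% and Gm10801 1.05% to 1.95%. The 6 others held at most 0.749% each, and some of them varied more. Where they were above 0 in these libraries, Gm10800 was 122 to 2726 times as high as Gm10717 and 122 to 481 times as high as Gm10719. The 3 libraries below that level are Young oocytes replicate 3, where Gm10800 held 73.2% and Gm21738 16.0%, Aged + LRP1high oocytes replicate 1, with 78.0% and 13.7%, and Aged + Unsorted oocytes replicate 2, with 85.3% and 8.48%. By locus, chromosome 2 held 87.1% to 90.8%, chromosome 14 5.67% to 8.96% and the 7 genes of chromosome 9 together 3.02% to 4.49% in those 18 libraries.

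The share of chromosome 9 was compared between cell types. The level limit that chose the members left 2 relatives on chromosome 9 out, Gm10720 and Gm10715, so the share is not independent of that choice. It was 4.08% ± 0.869 (SD, n = 12) in oocytes and 3.66% ± 0.467 (n = 9) in granulosa cells, a difference of 0.421 percentage points with p = 0.222 in a two-sided exact permutation test over 293930 assignments of the libraries. The difference was smaller than either SD. The test pooled the conditions within each cell type, and since the choice used the level, nothing more is read from its p. Without the library labelled Aged + Unsorted, the p of the exact test was 0.211. With both relatives counted in, the shares were 4.15% and 3.74% (exact permutation p = 0.240). Over the 18 libraries with a family TPM of at least 1000, 9 of each cell type, the shares were 3.75% and 3.66% (exact permutation p = 0.672).

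**Figure D3:**
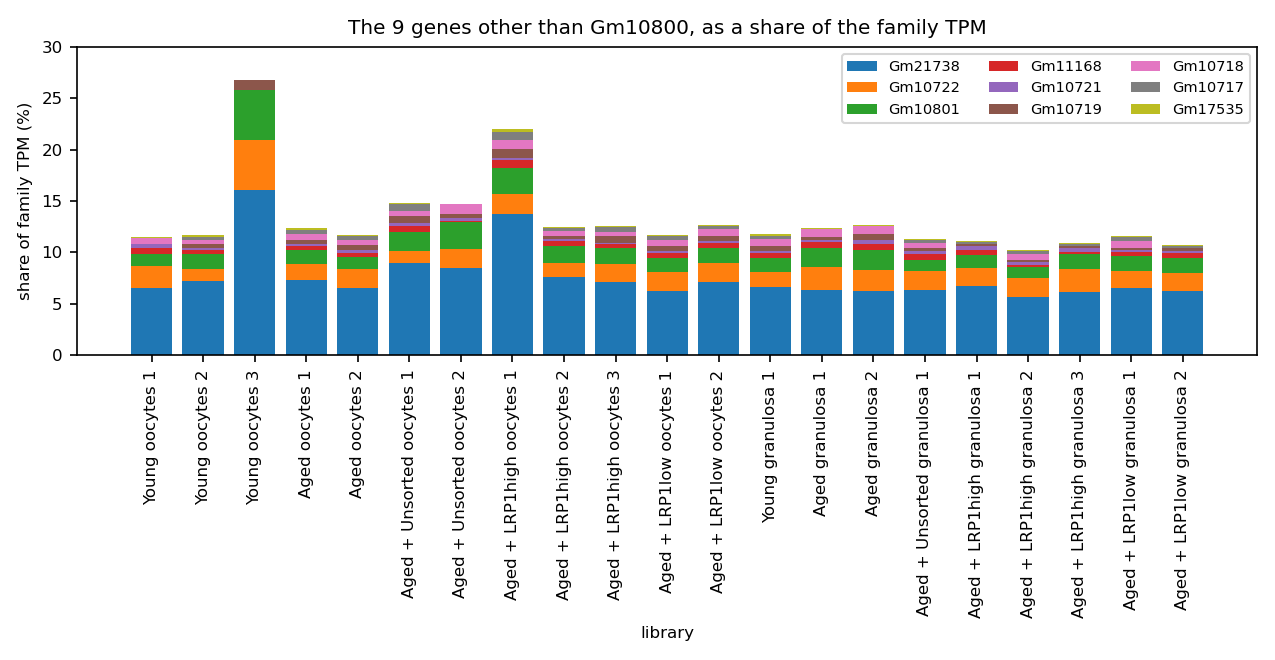
For each library (x axis) the stacked bar gives the share of the family TPM (percent, y axis) held by the 9 genes other than Gm10800, coloured by gene. Bars are near 10% to 15% in 19 libraries and taller in Young oocytes replicate 3 and Aged + LRP1high oocytes replicate 1, which have family TPM of 9.41 and 500.

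Other measures of the libraries moved with the family. The 4 oocyte libraries with the lowest oocyte markers, Young replicate 1, Aged replicate 1 and both Aged + LRP1low, had a family share of 42.4% to 88.3%, and the other 8 had 0.000941% to 19.6%. Their 10 oocyte markers, taken relative to the TPM of all genes outside the family, summed to 102 to 798 TPM, against 4296 to 32023 in the 8. Odorant and vomeronasal receptor genes, which belong to sensory neurons, were above 0 for 1186 to 1722 of 1739 genes in the 4 and for 122 to 1173 in the 8. Depth was 0.278 to 1.35 gigabases in the 4 and 0.791 to 3.40 in the 8. Taken in the same way, the 10 granulosa cell markers summed to 108 to 304 TPM in the 4 and 0.812 to 246 in the 8, the 6 stromal markers to 35.9 to 161 and 0.257 to 15.5, the 7 immune markers to 83.5 to 221 and 0 to 100.8, and the 5 red blood cell markers to 0 to 98.0 and 0 to 68.0. The part of these measures in the family's level was not tested.

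In granulosa cells the receptor genes were above 0 for 546 in the Young library and for 587 to 1506 in the other 8. Relative to the TPM outside the family, the oocyte markers summed to 13.0 to 26212 TPM over the 9 libraries, the highest in the library labelled Aged + Unsorted, and the granulosa cell markers to 16.7 to 2664, the highest in the Young library. The 7 libraries with a median granulosa cell marker FPKM of 0.601 or less had a family share of 25.9% to 97.0%, and the Young library and Aged + LRP1high replicate 3 had 7.84% and 68.5%. On the same scale stromal markers summed to 15.2 to 811 TPM, highest in Aged + LRP1high replicate 1, immune markers to 2.76 to 106, highest in Aged + LRP1high replicate 2, and red blood cell markers to 0 to 116, highest in the Young library. The part of these measures was not tested here either.

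**Figure D4:**
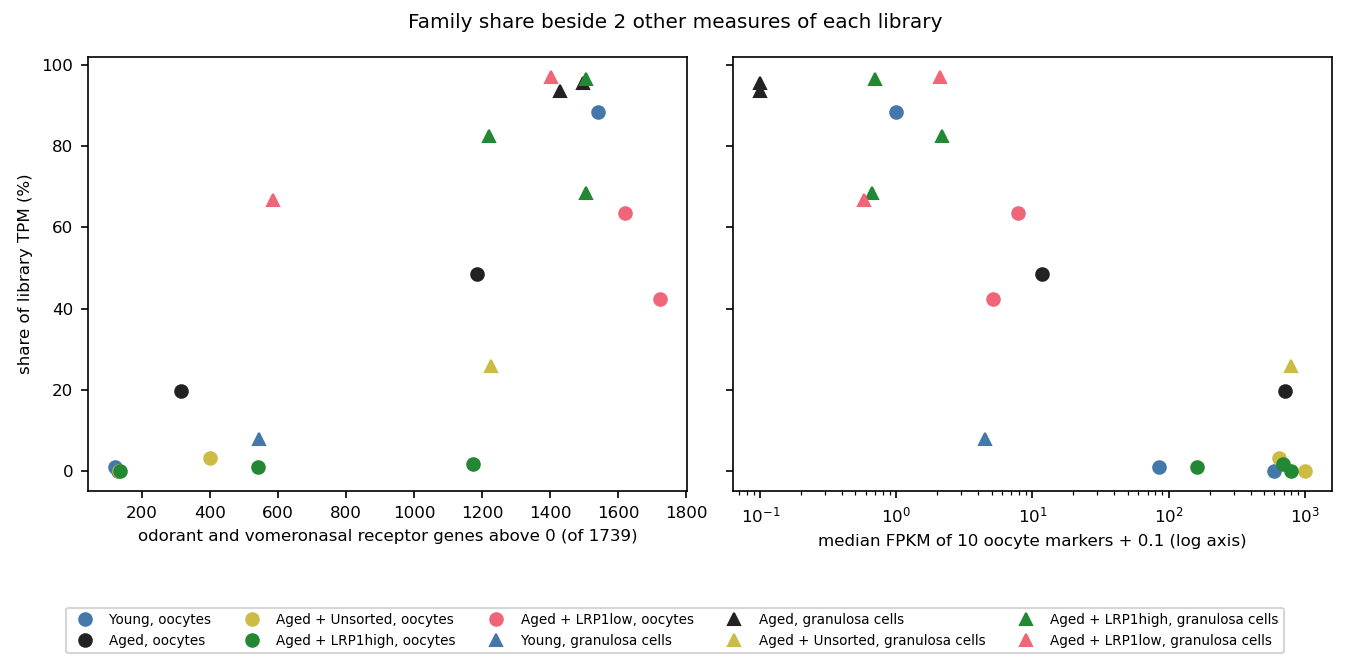
The family's share of the library TPM (percent, y axis) is plotted for each library (circles, oocytes, and triangles, granulosa cells, coloured by group) against the number of odorant and vomeronasal receptor genes above 0 (left) and against the median FPKM of 10 oocyte markers plus 0.1 on a log axis (right). Libraries with a share over 40% lie at 587 receptor genes or more and at a median oocyte marker FPKM of 11.6 or less.

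The comparisons of the study asked what aging changes in oocytes and granulosa cells and whether transplanted cells change the aged state. Differences of log2(FPKM + 1) were fitted with limma over the genes averaging an FPKM of 1 or more in the cell type, with Benjamini-Hochberg adjustment over 28004 genes in oocytes and 13002 in granulosa cells. Calls needed more than a 1.5-fold change together with an adjusted p below 0.05. The counts at an unadjusted p under 0.05 also needed more than a 1.5-fold change. The 10 members passed the filter in both cell types. Since their level chose them, counts of members called are set beside the percent of all genes called and nothing is read from them. Groups of 2 or 3 libraries are also described as apart or overlapping. How many of all genes separate in the same way is not given, and nothing is read from this either. All comparisons with Aged share the same 2 Aged libraries.

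Between Aged and Young oocytes, the summed family FPKM on the log2 scale was 17.24 ± 0.85 (SD, n = 2) in Aged and 11.24 ± 8.74 (n = 3) in Young, a difference of 5.99. The groups overlapped, because Young replicate 1 was above both Aged libraries. Limma called 0 of 10 members, beside 0.0964% of all genes, with 2 members and 2421 of all 28004 genes at an unadjusted p under 0.05. Gm10719 had the largest difference, 7.97 ± 1.79 (SE), with the 0 of Young replicate 1 among its values. When Aged replicate 2 was left out it was the 1 of 10 members called, beside 33% of all genes. Gm10800 differed by 6.04 ± 3.99. Without Young replicate 1 and Aged replicate 1, where the oocyte markers were low, the family difference was 9.62, and 0 members were called beside 8.2% of all genes.

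Against Aged, oocytes of Aged + Unsorted had a family FPKM of 9.74 ± 5.73 on the log2 scale (SD, n = 2), a difference of -7.50, with the groups apart. Limma called 0 members beside 0% of all genes, with 2 members and 2447 of all genes at an unadjusted p under 0.05. In Aged + LRP1high it was 10.73 ± 2.75 (n = 3), a difference of -6.50, also with the groups apart. Here 0 of 10 members were called beside 0.771% of all genes (0.0179% higher and 0.753% lower). At an unadjusted p under 0.05, 5 of the 10 members and 3043 of all 28004 genes passed. Gm10800 differed by -6.57 ± 3.99 (SE). The family was thus lower in each of these 5 libraries than in both Aged libraries. In Aged + LRP1low the family FPKM on the log2 scale was 18.01 ± 0.65 (n = 2), a difference of 0.78 with overlapping groups. There 0 members were called beside 3.17% of all genes (3.09% higher and 0.075% lower). At an unadjusted p under 0.05, 0 members and 3962 of all 28004 genes passed.

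Aged + LRP1high and Aged + LRP1low oocytes differed by -7.28 in the family FPKM on the log2 scale, with the groups apart. The limma fit called 1 of 10 members, Gm10719, lower in Aged + LRP1high (-6.67 ± 1.79, SE), beside 26% of all genes called and 24.8% called lower. Gm10719 had a FPKM of 1.78 to 26.0 in Aged + LRP1high and of 991 to 1602 in Aged + LRP1low. Over all genes the median difference was -1.89, and over the members it was -6.84. Under quantile normalization, which brought the median of all genes to -0.01, the members' median was -7.74 and no member was called. The call was also lost when any 1 of the 5 libraries was left out, and with a pseudocount of 0.1 or the replicate number as a block the fit called 0 of all 28004 genes. At an unadjusted p under 0.05, 8 of 10 members passed, beside 13738 of all 28004 genes.

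In granulosa cells, the family FPKM on the log2 scale was 20.02 ± 0.02 (SD, n = 2) in Aged, 19.47 ± 0.55 (n = 3) in Aged + LRP1high and 19.46 ± 0.75 (n = 2) in Aged + LRP1low. Both transplanted groups lay below Aged without overlap. The margin was small in Aged + LRP1high, whose highest library was at 20.005 against 20.010 in the lowest Aged library. The means of both groups lay 0.56 below that of Aged. The size of this difference was not stable: leaving out 1 library gave -0.82 to -0.27 in Aged + LRP1high and -1.09 to -0.03 in Aged + LRP1low, and division by the median of always detected genes gave -2.37 and -1.81. By the share of TPM the groups overlapped, with 96.4% and 97.0% in the highest transplanted libraries against 93.4% and 95.4% in Aged. For Aged + LRP1high against Aged, limma called 0 of 10 members beside 0% of all genes, with 3 members and 1106 of all genes at an unadjusted p under 0.05. For Aged + LRP1low against Aged it also called 0 of 10 beside 0% of all genes, with 1 member and 493 of all genes at an unadjusted p under 0.05. Gm10717 stood apart, listed at 0 in both Aged libraries, with differences of 10.41 ± 0.68 (SE) and 10.94 ± 0.74. It was called in the first when Aged + LRP1high replicate 2 or the library labelled Aged + Unsorted was left out, and in the second when Aged + LRP1low replicate 2 was left out. Gm10718 had differences of -8.73 ± 4.97 and -7.08 ± 5.45, with its 3 zeros among the transplanted libraries. The other 8 members differed by -1.55 to -0.51. The median difference of all genes was 0.89 and 0.31 in these comparisons.

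**Figure D5:**
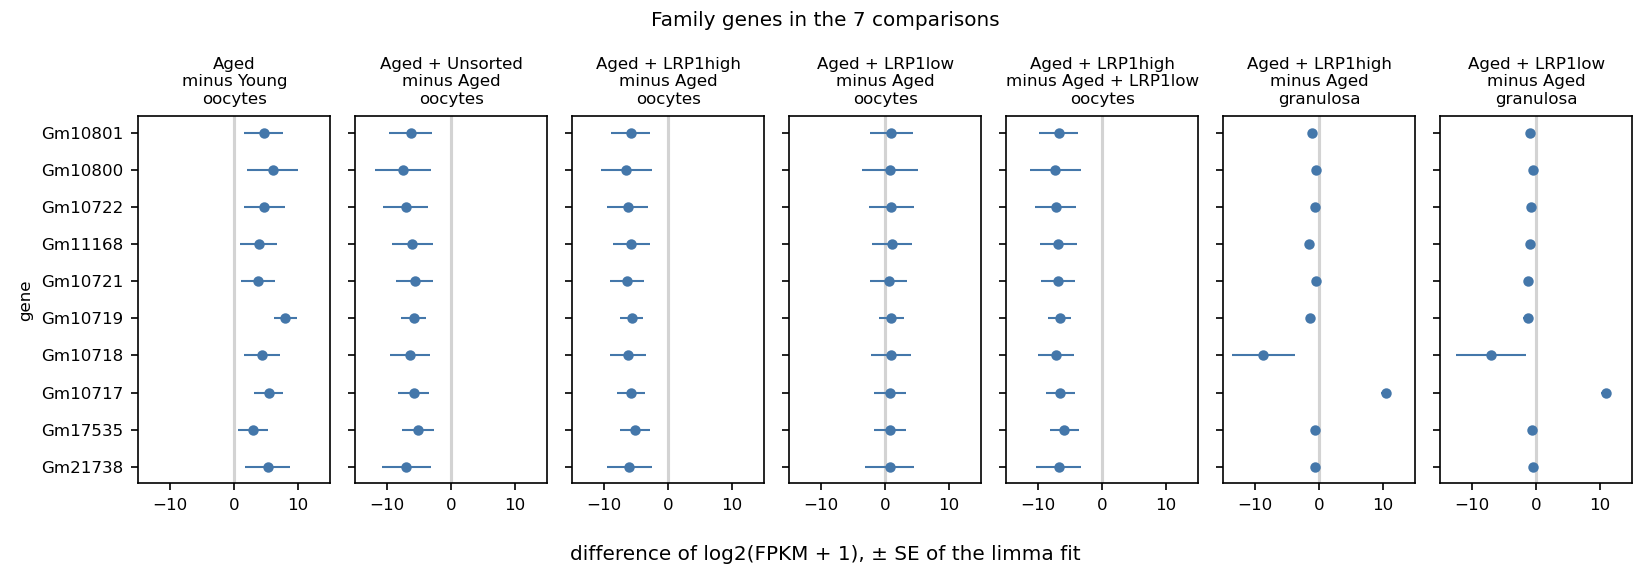
Each panel is 1 of the 7 comparisons, and points give the difference of log2(FPKM + 1) (x axis) of the 10 genes (rows, ordered by locus) with the SE of the limma fit as a bar. The 10 genes fall on the same side of 0 in each of the 5 oocyte comparisons, and in the 2 granulosa cell panels Gm10717 and Gm10718 lie apart from the other 8.

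Genes that build or maintain pericentromeric heterochromatin were examined beside the family, from a list of 38. The highest in oocytes were H3f3b, a variant histone H3 (mean FPKM 276), Dnmt1, the maintenance DNA methyltransferase (218), Zfp57, a zinc finger protein that protects methylation at imprinted genes (196), and Cbx3, a heterochromatin protein of the HP1 group (161). Between Aged + LRP1high and Aged + LRP1low oocytes 4 of 38 were called, beside 26% of all genes, 2 higher beside 1.21% and 2 lower beside 24.8%. Dnmt1 was higher in Aged + LRP1high (FPKM 176 to 575 against 8.12 to 11.54, difference 4.72 ± 1.58, SE, limma adjusted p = 0.0489), and so was Uhrf1, which brings Dnmt1 to newly copied DNA (130.1 to 346 against 4.71 to 5.98, difference 5.23 ± 1.503, adjusted p = 0.0358). Lower were Kdm4b, a histone demethylase (0 to 0.373 against 10.1 to 16.6, difference -3.60 ± 0.99, adjusted p = 0.0333), and Kmt5c, a histone H4 methyltransferase of this chromatin, which was listed at 0 in all 3 Aged + LRP1high libraries and had a FPKM of 5.15 to 6.02 in Aged + LRP1low. With a pseudocount of 0.1 or a replicate block, none of these 4 was called, nor any other gene of the 28004 in this comparison.

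H3f3b (182 to 639.7 against 4.98 to 16.3) and Zfp57 (99.1 to 546 against 3.35 to 7.59) did not pass the adjusted test in that comparison (limma adjusted p = 0.0551 and 0.0617), and neither did Cbx3 (33.2 to 108 against 14.4 to 20.998, adjusted p = 0.360). The median difference over the 38 was 0.61, against -1.89 over all genes. Oocyte markers and receptor genes differ between the same libraries, as given above, and their part was not tested. In the other 4 oocyte comparisons 0 of 38 were called by limma, with 2, 1, 5 and 2 at an unadjusted p under 0.05 in Aged against Young and in Aged + Unsorted, Aged + LRP1high and Aged + LRP1low against Aged. Over all 28004 genes, 2421, 2447, 3043 and 3962 passed at that p in the same order. In granulosa cells 0 of 36 tested were called in both comparisons, with 6 and 0 at an unadjusted p under 0.05, beside 1106 and 493 of all 13002 genes. Leaving out 1 library changed these counts: the 4 calls between Aged + LRP1high and Aged + LRP1low fell to 0 without any 1 of the 5 libraries, and without Aged replicate 2 limma called 2 genes against Young, 4 in Aged + Unsorted and 2 in Aged + LRP1high, beside 33%, 36.9% and 39.5% of all genes. Without Young replicate 1 it called 1 in Aged against Young beside 2.87% of all genes, and without Aged replicate 1 it called 1 in Aged + LRP1low beside 22.7%.

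Genes around the 3 loci did not share the family's level. There are 77 non-member genes within 1 megabase of a member, 2 of which are Gm10720 and Gm10715, relatives in the chromosome 9 cluster. The other 5 genes near the chromosome 2 locus summed to at most 45.2 TPM in any library, where the members there reached 879361. Near the chromosome 9 locus 13 genes summed to at most 103 TPM, against 42861 for the members, and near the chromosome 14 locus 57 genes to at most 549, against 60397. Gm10720 and Gm10715, which share 26.5% and 25.8% of their words with Gm10800, had a TPM of 0 to 692 (median 202) and 0 to 584 (median 55.5).

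Of the 40 neighbours tested in oocytes, 10 were called between Aged + LRP1high and Aged + LRP1low, 1 higher and 9 lower, beside 26% of all genes. Dnajc9, a co-chaperone of histones near the chromosome 14 locus, was higher in Aged + LRP1high (FPKM 57.0 to 101.1 against 1.49 to 4.98, difference 4.43 ± 1.19, SE, limma adjusted p = 0.0313). Among the lower were Nudt13, a mitochondrial hydrolase (0 to 0.754 against 9.06 to 11.01, adjusted p = 0.0249), Kcnk16, a potassium channel (0 to 0.0910 against 5.23 to 6.80, adjusted p = 0.0224), Gng2, a G protein subunit (0 to 0.671 against 3.58 to 9.80, adjusted p = 0.0305), and Gm8584, Gm2048, Gm33022 and Gm49341, each listed at 0 in all 3 Aged + LRP1high libraries. Rtraf, an RNA-binding factor and among the highest of the neighbours (mean FPKM 17.4), had 0.769 to 25.5 against 3.83 to 6.68 (adjusted p = 0.686). Gm8584 was also called higher in Aged + LRP1low than in Aged, the 1 of 40 called there beside 3.17% of all genes. In the 3 other oocyte comparisons 0 of 40 were called by limma. At an unadjusted p under 0.05, 1, 1 and 2 passed there, beside 2421, 2447 and 3043 of all 28004 genes. In granulosa cells 0 of 28 were called in both comparisons, with 9 and 5 at an unadjusted p under 0.05, beside 1106 and 493 of all 13002 genes. These counts also rest on single libraries. Between Aged + LRP1high and Aged + LRP1low at most 1 neighbour was called without any 1 library. In Aged + LRP1low against Aged it was 0 without either Aged + LRP1low library, 9 without Aged replicate 1 beside 22.7% of all genes, and 6 without Aged replicate 2 beside 10.4%. Without Aged replicate 2 the other 3 oocyte comparisons called 10, 11 and 12 neighbours beside 33%, 36.9% and 39.5% of all genes, and without Aged replicate 1 they called 2 each beside 3.73% to 4.59%. In Aged + LRP1low granulosa cells 6 were called without its replicate 2, beside 5.61% of all genes. With a pseudocount of 0.1 or a replicate block 0 neighbours were called in the oocyte comparisons.

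The genes whose TPM ranked the libraries most like the family total were, in oocytes, Gm10720 (Spearman rho 0.998 over 12 libraries) and Gm10715 (0.986), then Gm48105, a long noncoding RNA among the neighbours on chromosome 14 (0.932), Slc17a7, a glutamate transporter of synaptic vesicles (0.930), and Gm45242 (0.928). In granulosa cells they were Gm10720 (0.900 over 9 libraries) and Gm10715 (0.800), then Gm47221 (0.783), 1600010M07Rik (0.763) and Chia1, a chitinase (0.753). Gm10720 and Gm10715 can receive the same reads as the members. The other 3 in each cell type had low values, with a highest TPM of 31.8 in oocytes and 6.17 in granulosa cells. The libraries share depth and the total of the TPM, so these correlations describe likeness among 27994 and 12992 genes compared and carry no test.

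Within the family, 9 of the 10 members ranked the oocyte libraries nearly as the family total did (Spearman rho 0.921 to 1.00), and Gm10719, with its 0 in Young replicate 1, had a rho of 0.510. In granulosa cells Gm10717 and Gm10718, the members with zeros in high libraries, had a rho of 0.226 and 0.153, and the other 8 had 0.650 to 1.00.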

How the data were processed

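RNA-seq libraries of 12 oocyte and 9 granulosa cell samples were used. The processing notes name HISAT2 2.2.1 and StringTie 1.3.3b. The deposited tables hold, per gene, Coverage (mean read coverage), FPKM and TPM, all computed by the authors, with no read counts. The labels name the mm9 build, but 54578 of 55335 identifiers have the coordinates of GENCODE vM21 on GRCm38, which was used here. The library kit, and with it the strand, differs between the labels and the methods of the study, and its setting in counting was not settled. Between 4 and 21 identifiers per table occurred more than once and were summed.

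Groups came from the labels. The members and gene lists were chosen with earlier results of these data known. Depth was the median of Coverage over FPKM in 21693 single-exon genes, so it is an estimate and no counting interval was computed. Log2(FPKM + 1) was fitted, for genes averaging an FPKM of 1 or more, with limma 3.58.1 (R 4.3.3), all groups of a cell type in 1 model, for 7 comparisons with Benjamini-Hochberg adjustment. Calls needed more than a 1.5-fold change and an adjusted p below 0.05. A fold change on this scale understates the change of low genes. The exact permutation test, sums and sequences used Python 3.11.15 with numpy 2.4.6, pandas 2.3.3 and scipy 1.17.1, and matplotlib 3.10.9 drew the plots.

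Besides the 10 members, the genes named were those called among the heterochromatin and neighbouring genes (up to 8 per comparison, by adjusted p), the 4 of each list with the highest mean FPKM in oocytes, the 5 genes of each cell type whose TPM ranked most like the family total, and relatives just under the level limit. Alternatives were a pseudocount of 0.1, no filter, TPM, quantile normalization, a replicate block, division by the median of always detected genes, leaving out each library, and, chosen after seeing the data, the exclusion of libraries whose markers went against their label, a limit to libraries with a family TPM of at least 1000 for the chromosome 9 share, and the same share with Gm10720 and Gm10715 counted in.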

Additional observations from a re-analysis of the deposited data

Results flagged for a closer look

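Gm10717 moved in opposite directions in the 2 cell types when Aged + LRP1high was set against Aged. In oocytes its FPKM was 923 and 378 in Aged and 1.40, 24.4 and 17.0 in Aged + LRP1high. In granulosa cells it was listed at 0 and 0 in Aged and had a FPKM of 851, 3363 and 886 in Aged + LRP1high. In the same granulosa cell libraries its neighbour Gm10718 went the other way, with a FPKM of 7566 to 7909 in Aged and 0 to 6068 in Aged + LRP1high. The remaining members were lower in Aged + LRP1high in both cell types, by -1.55 to -0.51 on the log2 scale in granulosa cells. The family total was also lower in both, by -6.50 in oocytes and -0.56 in granulosa cells. The difference of Gm10717 between the cell types was not tested.

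Gm11168 was the member whose libraries all moved in opposite directions in the 2 cell types when Aged + LRP1low was set against Aged. In oocytes its FPKM was 952 and 408 in Aged and 969.5 and 1760.1 in Aged + LRP1low, and in granulosa cells it was 6119 and 6386 in Aged and 2221 and 5008 in Aged + LRP1low. Its group means differed by 1.07 ± 3.19 and -0.91 ± 0.66 on the log2 scale (SE), and this difference was not tested either. The means of all 10 members were higher in Aged + LRP1low oocytes and those of 9 of 10 lower in Aged + LRP1low granulosa cells, so the opposite signs were not particular to Gm11168. Of all genes tested, 68.3% were higher in Aged + LRP1low oocytes and 70.1% were higher in Aged + LRP1low granulosa cells. The members resemble each other in sequence and are not independent values.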

How the results depend on the processing

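Of 335 alternative values, 268 stayed near the reported one, 67 moved and 0 reversed, where near means within 1.5 times for a count, within 1 SD between libraries for a level or difference, and the same sign and side of the threshold for the chromosome 9 share. For the family share, leaving out 1 library or taking the median could not move a group mean by more than 1 SD. Counts that stayed at 0 are among the 268 too. The 268 are therefore no measure of stability. With a pseudocount of 0.1, the calls between Aged + LRP1high and Aged + LRP1low oocytes were 0 members, 0 heterochromatin genes and 0 neighbours, and those of neighbours in Aged + LRP1low against Aged were 0. Without the filter, neighbours called were 30 and 18 of all 77 in these comparisons, beside 39.9% and 21.6% of all genes. They were 1 and 2 in granulosa cells of Aged + LRP1high and Aged + LRP1low, beside 0.0488% and 0.0596% of all genes. On TPM, 3 neighbours were called in Aged + LRP1low oocytes, beside 4.5% of all genes. Under quantile normalization, Aged + LRP1high against Aged + LRP1low called 0 members, 2 heterochromatin genes and 2 neighbours, beside 2.51% of all genes. Both granulosa cell comparisons called 5 neighbours, beside 0.369% of all genes in Aged + LRP1high and 0.0692% in Aged + LRP1low. Gm10717 was the 1 member called in both granulosa cell comparisons with the pseudocount of 0.1 and on TPM, beside 0.00769% of all genes in each. It was also the 1 member called in both under quantile normalization, and in Aged + LRP1high without the library labelled Aged + Unsorted, beside 0.00898% of all genes there. Without Young replicate 1 and Aged replicate 1 the Aged oocyte group held 1 library, so calls of neighbours and heterochromatin genes in that setting are not read. Divided by the median of always detected genes, the family difference from Aged was 1.76 in Aged + LRP1low oocytes, and -2.37 and -1.81 in Aged + LRP1high and Aged + LRP1low granulosa cells. The causes were not tested. Whether the replicate numbers pair the libraries could not be told. Residual correlations of same-numbered libraries were -0.436 to 0.441 in oocytes and -0.0761 to 0.256 in granulosa cells. Those of differently numbered libraries were -0.520 to 0.520 and -0.256 to 0.255. In a group of 2 the residuals mirror each other, so the correlations of both kinds are tied. With the replicate block 0 genes were called in any comparison, 0 members and 0 neighbours among them.

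With 1 library left out, members called ranged from 0 to 1 in Aged against Young oocytes and in both granulosa cell comparisons, and were 0 in the other oocyte comparisons. Heterochromatin genes ranged from 0 to 2, 0 to 4, 0 to 2, 0 to 1 and 0 to 0 over the 5 oocyte comparisons in the order of the report, and were 0 in granulosa cells. Neighbours ranged from 0 to 10, 0 to 11, 0 to 12, 0 to 9 and 0 to 1, and from 0 to 0 and 0 to 6 in granulosa cells. Many of these fits left 1 library in a group. The percent of all genes called also changed widely from fit to fit, as given above beside the counts, so nothing is read from these ranges of counts. The family share ranged from 0.565% to 44.7% in Young, 19.6% to 48.6% in Aged, 0.0111% to 3.17% in Aged + Unsorted, 0.582% to 1.42% in Aged + LRP1high and 42.4% to 63.6% in Aged + LRP1low oocytes. Family differences ranged from 1.49 to 10.22, -11.55 to -3.44, -7.52 to -4.94, 0.17 to 1.38 and -8.30 to -5.72 in oocytes, and from -0.82 to -0.27 and -1.09 to -0.03 in granulosa cells. The difference in the chromosome 9 share ranged from 0.259 to 0.525 percentage points. Without read counts, counting error could not be set beside the low values.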

Other observations

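Outside the family, the gene with the highest TPM differed between libraries; these genes were picked after their values were seen. It was Insig1, a regulator of sterol synthesis, in Young oocytes replicate 2 (146439) and Sod1, a superoxide dismutase, in Young oocytes replicate 3 (43615) and Aged + LRP1high oocytes replicate 1 (25492). In Aged + LRP1high granulosa cells replicate 2 and Aged + LRP1low granulosa cells replicate 2 it was Gm10720, the relative of the family (692 and 531).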
